A study of Mus musculus with 6 samples.

Results

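The pigment epithelium and melanogenesis genes described here are 8 genes, Mitf, Tyr, Tyrp1, Dct, Trpm1, Rpe65, Mlana and Slc45a2, taken by symbol from a table of read counts for 23441 genes. All 8 were in the table. They were followed in polyadenylated RNA of mouse retina at embryonic day 14.5, in 3 libraries in which Ronin, the product of Thap11, had been removed conditionally (CKO), and in 3 control libraries. CKO mice carried Chx10-Cre::GFP +/tg together with Ronin flox/flox, and control mice carried Ronin flox/flox without the transgene. All libraries came from a mixed background that the labels give as C57/B6, SJL/B6, 129/Sv and FVB. FVB and SJL mice are albino through a mutation in Tyr, and the labels do not give the Tyr genotype or the eye pigmentation of these embryos. The labels call the knockout specific to RPC (retinal progenitor cells), so the pigment epithelium lies outside the intended deletion. The labels do not say whether the pigment epithelium was removed when the retinae were dissected, nor whether replicates came from separate animals, so the spread behind each p-value is that among libraries and may be technical.

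The retinal pigment epithelium is a sheet of pigmented cells behind the neural retina that arises from the same optic vesicle. MITF, a basic helix-loop-helix leucine zipper factor, specifies this sheet and switches on the genes of the melanosome, the organelle that makes melanin. Within it, tyrosinase (Tyr) starts the conversion of tyrosine, and the related enzymes Dct and Tyrp1 act on later intermediates. The neural retina does not become pigmented, so these transcripts serve as a measure of pigmented tissue in a retinal dissection. Neural crest melanocytes, which settle in the choroid, use the same enzymes.

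MITF binds the M-box, which has the core CATGTG, and the E-box CACGTG. The promoter windows of Tyr, Tyrp1, Dct and Trpm1 are shown because they are those of the tested genes that hold that core. RefSeq windows of 300 bases (GRCm38.p6, 250 bases before and 50 after the annotated start) were found for 6 of the 8 genes. The sequences run 5′ to 3′ on the strand of the gene, with matches of the M-box core in capitals on either strand (CACATG is the reverse form). The Tyr window lies at chr7:87493463-87493762 on the minus strand, the Tyrp1 window at chr4:80833963-80834262 on the plus strand, the Dct window at chr14:118052197-118052496 on the minus strand, and the upstream of the pair of Trpm1 windows at chr7:64153585-64153884 on the plus strand.
Tyr: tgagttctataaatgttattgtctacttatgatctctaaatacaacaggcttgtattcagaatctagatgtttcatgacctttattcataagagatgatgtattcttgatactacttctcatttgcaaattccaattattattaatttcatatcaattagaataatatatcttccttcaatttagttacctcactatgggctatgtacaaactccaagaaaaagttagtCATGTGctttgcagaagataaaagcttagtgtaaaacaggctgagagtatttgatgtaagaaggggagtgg
Tyrp1: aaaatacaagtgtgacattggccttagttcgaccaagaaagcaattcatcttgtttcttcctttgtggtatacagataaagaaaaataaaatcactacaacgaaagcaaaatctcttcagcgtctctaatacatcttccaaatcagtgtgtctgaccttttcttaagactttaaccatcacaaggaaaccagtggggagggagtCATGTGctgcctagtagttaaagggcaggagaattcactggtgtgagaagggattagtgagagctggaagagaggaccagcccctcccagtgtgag
Dct: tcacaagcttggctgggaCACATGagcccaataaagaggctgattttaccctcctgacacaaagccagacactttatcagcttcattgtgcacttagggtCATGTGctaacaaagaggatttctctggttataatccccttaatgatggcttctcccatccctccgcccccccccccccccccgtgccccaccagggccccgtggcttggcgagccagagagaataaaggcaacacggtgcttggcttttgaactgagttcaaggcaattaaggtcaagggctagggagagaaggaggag
Trpm1: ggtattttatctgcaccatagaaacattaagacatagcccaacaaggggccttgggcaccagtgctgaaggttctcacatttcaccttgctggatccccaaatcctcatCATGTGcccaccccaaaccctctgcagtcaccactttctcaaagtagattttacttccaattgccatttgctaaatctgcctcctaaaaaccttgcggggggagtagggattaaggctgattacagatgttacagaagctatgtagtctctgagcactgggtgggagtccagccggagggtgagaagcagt

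The core began at position -21 in Tyr, at -46 in Tyrp1, at -150 and, in the reverse form, at -232 in Dct, and at -141 in Trpm1, counted from the annotated start. Around the core, Tyr and Tyrp1 shared the 11 bases AGTCATGTGCT, which were chosen for a search after the windows had been read and which 7 of all 32851 windows held (0.0213%). Dct shared the last 9 of these, TCATGTGCT, found in 0.408% of windows. The core itself, searched on both strands, was present in 14.2% of all windows and the E-box in 7.15%. An E-box occurred among the pigment genes in the other Trpm1 window, at -229, and the Rpe65 window held the reverse core at -239. None of the 3 Mitf windows held either motif. The OTX site GGATTA, or its reverse TAATCC, which OTX2 binds, was found in Tyrp1, Dct, the upstream Trpm1 window, Rpe65 and 1 Mitf window, and in 7.06% of all windows. For THAP11 and its partner ZNF143 only 1 form of the motif was searched, on both strands. That form had 0 matches in the windows of these genes and occurred in 1.14% of all windows. Sequences that differ from it by a base were not counted, and the most upstream Mitf window holds such a sequence in the reverse form. Whether that sequence is a THAP11 site was not tested, since no form allowing another base at that position was searched. The 0 therefore does not show that these promoters lack a THAP11 site. No overlap between matches of different motifs was found in these windows. A match describes letters in a window of GRCm38, and the counts were made on another build, mm9, per the submitters' notes.

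**Figure D1:**
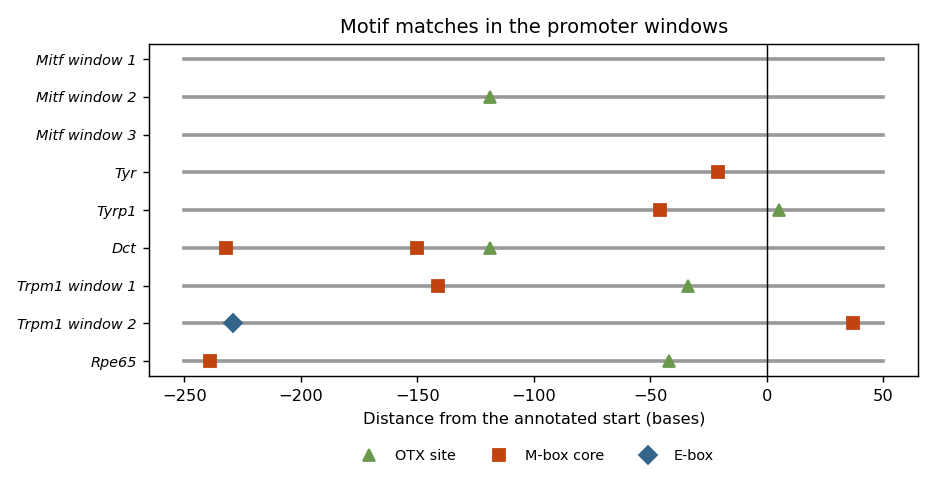
Position of each motif match (x axis, bases from the annotated start) in the 9 promoter windows of the 6 pigment genes that have one (rows); squares mark the M-box core, diamonds the E-box and triangles the OTX site. Tyr, Tyrp1, Dct, Rpe65 and both Trpm1 windows hold the M-box core, and the Mitf windows hold neither it nor the E-box.

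The libraries held 23721052 to 28504391 counted reads. Thap11 fell to 9.49 ± 2.70 CPM in CKO retinae, against 73.95 ± 7.17 CPM in control retinae (SD, n = 3 each; edgeR quasi-likelihood test, adjusted p = 0.00425), where CPM is the read count per 1000000 reads, with libraries scaled by TMM. The retinal transcription factor gene Pax6 was abundant throughout, with 681 ± 33.2 CPM per kilobase of coding sequence in CKO libraries and 631 ± 37.4 in controls (SD, n = 3 each). Control replicate 2 correlated least with the other controls, at a Pearson r of log2 CPM of 0.954 and 0.973.

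Against that neural background the pigment genes were scarce. Divided by the longest annotated coding length, mean levels in CKO libraries were 3.90 ± 0.16 CPM per kilobase for Trpm1, 2.40 ± 0.22 for Mitf, 2.29 ± 0.23 for Dct, 1.51 ± 0.47 for Tyrp1, 0.649 ± 0.453 for Mlana, 0.359 ± 0.158 for Tyr, 0.126 ± 0.0162 for Slc45a2 and 0.0289 ± 0.050 for Rpe65 (SD, n = 3). In control libraries they were 6.05 ± 2.39 for Trpm1, 3.61 ± 0.76 for Dct, 2.97 ± 1.76 for Mitf, 1.88 ± 1.23 for Tyrp1, 1.45 ± 0.36 for Mlana, 0.671 ± 0.461 for Tyr, 0.206 ± 0.101 for Slc45a2 and 0.0241 ± 0.0238 for Rpe65. Trpm1 led in both genotypes and Rpe65 came last. Mitf and Dct, neighbours in this order, lay within both their SDs of each other in both genotypes, and so did Mitf and Tyrp1 in the controls. Tyrp1 and Mlana in the controls, and Mlana and Tyr in CKO libraries, lay within the larger of their SDs only. Coding length leaves out untranslated exons, and per kilobase of all annotated exons Tyrp1 (0.860 CPM per kilobase in CKO libraries) stood above Mitf (0.612) and Dct (0.602).

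Mitf, the regulator of the group, had 4.02, 3.40 and 3.97 CPM in CKO replicates 1 to 3, against 7.70, 2.22 and 4.15 CPM in control replicates 1 to 3. The CKO libraries all lay within the range of the controls, where the highest value was 3.46 times the lowest. The fitted log2 fold change of CKO over control was -0.31 ± 0.41 (SE, edgeR adjusted p = 0.950, 95% interval -1.26 to 0.64). Counts per gene do not separate the isoforms that start at the different Mitf promoters, such as those of pigment epithelium and of melanocytes. In bulk tissue, fewer cells of a type and less RNA per cell cannot be told apart.

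Tyr, whose enzyme carries out the rate-limiting step of melanin synthesis, was counted in 22, 18 and 7 reads in the CKO libraries and 49, 14 and 18 reads in the controls. This came to 0.762, 0.672 and 0.286 CPM in CKO replicates 1 to 3, against 1.92, 0.611 and 0.685 CPM in control replicates 1 to 3. Control replicate 1 was the highest library and CKO replicate 3 the lowest, and the other 4 were close together. The log2 fold change was -0.89 ± 0.56 (edgeR adjusted p = 0.916, 95% interval -2.18 to 0.40). For 7 reads the exact 95% Poisson interval runs from 0.115 to 0.590 CPM, counting error only, and it overlaps the interval of control replicate 2, the next library (0.334 to 1.02 CPM).

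Tyrp1, which stabilises tyrosinase and acts late in the synthesis of black pigment in mice, had 2.53, 3.14 and 1.64 CPM in CKO replicates 1 to 3, against 5.22, 1.35 and 2.51 CPM in control replicates 1 to 3. The CKO libraries again sat inside the control range, whose ends differed 3.86-fold. The log2 fold change was -0.32 ± 0.48 (edgeR adjusted p = 0.956, 95% interval -1.44 to 0.80).

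Dct, dopachrome tautomerase, had 3.81, 3.70 and 3.15 CPM in CKO replicates 1 to 3, against 6.95, 5.06 and 4.80 CPM in control replicates 1 to 3. All CKO libraries lay below all controls. The means were 3.55 ± 0.353 CPM in CKO retinae and 5.602 ± 1.17 CPM in control retinae (SD, n = 3 each). The log2 fold change was -0.66 ± 0.22, with an unadjusted p of 0.0191 that did not pass adjustment over all genes (edgeR adjusted p = 0.531). Its 95% interval ran from -1.17 to -0.14.

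Trpm1 encodes a cation channel first known as melastatin from pigment cells, which in the adult retina serves ON bipolar cells. It had 19.6, 18.1 and 19.5 CPM in CKO replicates 1 to 3, against 42.5, 26.3 and 19.8 CPM in control replicates 1 to 3. The groups did not overlap, but CKO replicate 1, with 19.56 CPM, and control replicate 3, with 19.76 CPM, nearly met. Its exons overlap the annotated gene Gm44722 on the opposite strand. The log2 fold change was -0.63 ± 0.27 (unadjusted p = 0.0480, edgeR adjusted p = 0.748, 95% interval -1.25 to -0.00722).

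The remaining 3 genes did not pass the filter on low counts and were not tested in the fit. Mlana, a melanosome membrane protein also known as MART-1, was counted in 11, 2 and 5 reads in CKO replicates 1 to 3 and in 16, 9 and 12 reads in control replicates 1 to 3. Its CPM values, 0.381, 0.0747 and 0.204 in the CKO and 0.628, 0.393 and 0.457 in the controls, did not overlap, and the nearest pair, CKO replicate 1 (exact 95% Poisson interval 0.190 to 0.681 CPM) and control replicate 2 (0.180 to 0.745 CPM), had overlapping intervals. With no filter beyond a total above 0, its log2 fold change was -1.13 ± 0.58 (edgeR adjusted p = 0.883). Slc45a2, a melanosome transporter needed for the right pH, had 5, 6 and 5 reads in the CKO libraries and 8, 4 and 13 reads in the controls, which overlapped.

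Rpe65, the isomerase of the visual cycle and a marker of mature pigment epithelium, was listed with 4, 0 and 0 reads in CKO replicates 1 to 3 and 1, 0 and 2 reads in control replicates 1 to 3. Over each group this came to 4 reads in the CKO (exact 95% Poisson interval 0.0136 to 0.128 CPM) and 3 reads in the controls (0.00829 to 0.117 CPM), so no difference was detectable at this depth. A library with 0 reads allows a level of up to 0.112 CPM in CKO replicate 2 and 0.131 CPM in control replicate 2, at a limit of 3 counts, counting error only.

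**Figure D2:**
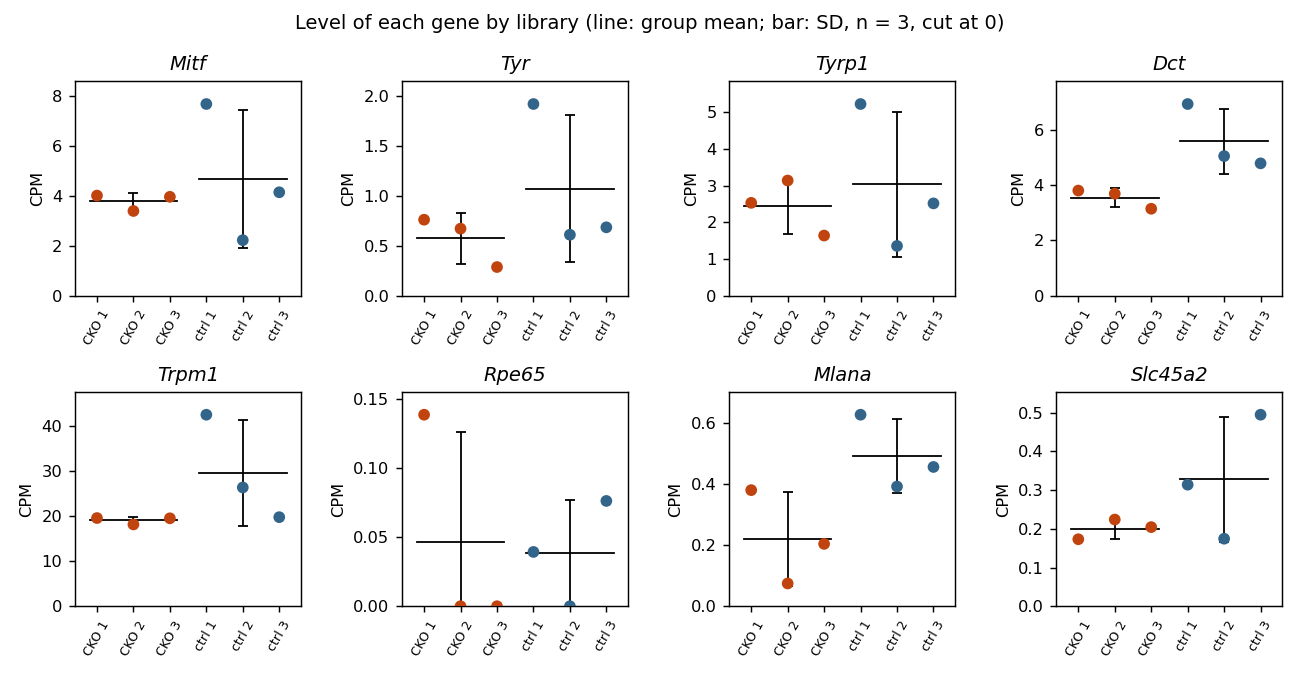
CPM of each of the 8 genes (y axis, linear from 0) in the 3 CKO libraries (left, orange) and 3 control libraries (right, blue); lines give group means and bars the SD (n = 3, cut at 0). Control replicate 1 is the highest library for Mitf, Tyr, Tyrp1, Dct, Trpm1 and Mlana, with 42.5 CPM for Trpm1, and the CKO libraries lie below all controls for Dct, Trpm1 and Mlana.

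Of the 5 tested genes 0 passed edgeR's test at an adjusted p under 0.05, against 0.897% of all 14609 genes tested, 0.192% higher and 0.705% lower in the CKO. DESeq2's Wald test also called 0 of the 5, against 2.28% of the genes it tested, and limma-voom 0, against 0.821%. At an unadjusted p under 0.05 there were 2, Dct and Trpm1, where 6.58% of all tested genes stood below that value. Every CKO library was below every control for Dct and Trpm1, 2 of the 5, against 6.91% of all tested genes, and above every control for 0, against 5.74%. All 5 fitted log2 fold changes were negative, with a median of -0.63, beside a median of -0.03 over all tested genes, of which 55% were negative. With 5 genes that share 6 libraries, these counts are not independent of each other.

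The tested pigment genes shared a high library. Control replicate 1 had the highest value for 5 of 5, while 26.6% of all tested genes were highest in that library. The summed level of all 8 genes was 31.4, 29.3 and 28.95 CPM in CKO replicates 1 to 3, against 65.3, 36.2 and 32.9 CPM in control replicates 1 to 3. Trpm1 made up 63.9% ± 3.06 of the sum in CKO libraries and 65.99% ± 6.47 in controls (SD, n = 3 each). The other 7 genes summed to 11.8, 11.2 and 9.45 CPM in the CKO and 22.8, 9.82 and 13.2 CPM in the controls. In that sum control replicate 2 lay within the CKO range, control replicate 3 a little above it, and control replicate 1 well above the rest.

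**Figure D3:**
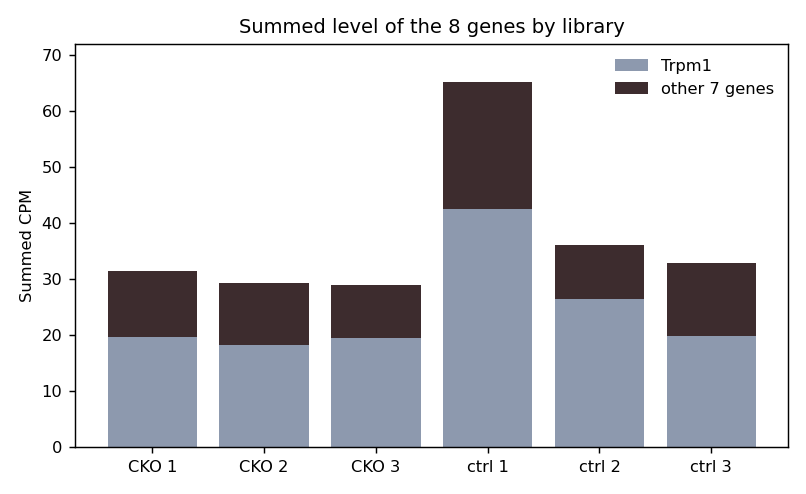
Summed CPM of the 8 pigment genes (y axis) in each library, CKO at left and control at right, divided into Trpm1 (grey) and the other 7 genes (dark). Control replicate 1 reaches 65.3 CPM, and the other 5 libraries lie between 28.95 and 36.2 CPM.

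Within a library the genes did not all keep the same proportions. The Trpm1 to Dct ratio of CPM was 5.41 ± 0.69 in CKO libraries and 5.15 ± 0.998 in controls (SD, n = 3 each). Mitf and Tyrp1 stood apart in control replicate 2, where the Mitf to Dct ratio was 0.440 and the Tyrp1 to Dct ratio 0.267, while the Mitf to Dct ratio spanned 0.919 to 1.26 in CKO libraries and was 1.11 and 0.865 in control replicates 1 and 3. The median SD of log2 CPM over the 5 tested genes was 0.144 in CKO libraries and 0.850 in controls, beside 0.098 in CKO libraries and 0.327 in controls over all tested genes. The edgeR fit used 1 estimate of the spread per gene for both groups. Its SEs, intervals and p-values therefore pool these unequal spreads.

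**Figure D4:**
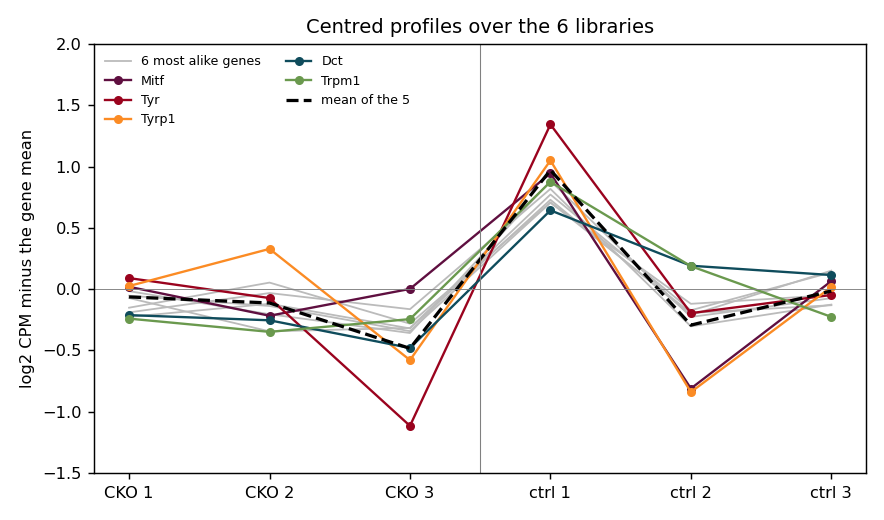
log2 CPM of each of the 5 tested pigment genes minus the gene's own mean (y axis) in each library (x axis), with their mean (dashed) and the 6 genes of most similar profile (grey); lines join the points of a gene and carry no order among replicates. All 5 peak in control replicate 1, where their mean stands at 0.97, and Mitf and Tyrp1 are lowest in control replicate 2.

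The fitted differences moved with the control library left out. Control replicate 1 was the highest for all 5 tested genes, so leaving it out had to bring the control means down. Without control replicate 1, the log2 fold change of Mitf was 0.25 ± 0.30 and that of Tyrp1 0.33 ± 0.39, both with the sign reversed (edgeR adjusted p = 0.678 and 0.668), and those of Tyr and Trpm1 shrank to -0.16 ± 0.46 and -0.27 ± 0.17. Dct was at -0.47 ± 0.20 (edgeR adjusted p = 0.370). Without control replicate 2 instead, which was the lowest library for Mitf and Tyrp1, their log2 fold changes were -0.63 ± 0.28 and -0.65 ± 0.39 (edgeR adjusted p = 0.552 and 0.675). The difference of the summed level, CKO minus control, was -14.9 CPM with all libraries and -4.66 CPM without control replicate 1. For the 7 genes other than Trpm1 it was -4.44 CPM and, without that library, -0.676 CPM.

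**Figure D5:**
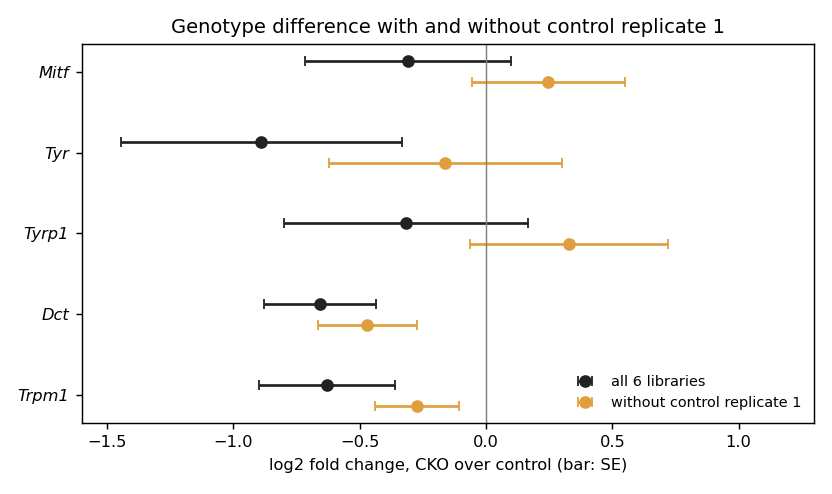
Fitted log2 fold change of CKO over control (x axis, bars are SE) for the 5 tested genes, with all 6 libraries (black) and without control replicate 1 (orange). Mitf and Tyrp1 move from -0.31 and -0.32 to 0.25 and 0.33, and Dct stays negative at -0.66 and -0.47.

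Of 15 listed genes of melanosome proteins and pigment transporters 13 were tested, and 1 fell while 0 rose, where 0.705% of all tested genes fell and 0.192% rose. The list's median log2 fold change was -0.13, and 1 of the 13 had an unadjusted p under 0.05, against 6.58% of all tested genes, the share to set beside such counts in the lists that follow. The gene that fell was Ctns, which encodes the lysosomal cystine transporter cystinosin. It had 7.10, 9.18 and 8.34 CPM in CKO replicates 1 to 3, against 19.3, 16.1 and 24.2 CPM in control replicates 1 to 3, and its log2 fold change was -1.28 ± 0.20 (edgeR adjusted p = 0.0367). Ctns was highest in control replicate 3. The call was lost when control replicate 1 (adjusted p = 0.0811), control replicate 3 (0.165) or CKO replicate 1, 2 or 3 (0.225, 0.139 and 0.218) was left out, and with library sizes as the only scaling (0.0702). Over the 13 alternatives run for Ctns the adjusted p spanned 6.2e-06 to 0.225.

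Of the 13 tested genes of that list 5 were highest in control replicate 1 (38.5%, against 26.6% of all tested genes), and 2, Slc24a5 and Tpcn2, were lowest there. Pmel and Oca2 are described after their values were seen and are among the 5. Pmel, which forms the fibrils on which melanin is laid down, had 8.52, 7.28 and 5.28 CPM in CKO replicates 1 to 3, against 15.5, 9.73 and 6.05 CPM in control replicates 1 to 3. Oca2, a melanosomal anion channel, had 2.32, 1.46 and 1.84 CPM in the CKO and 3.18, 1.27 and 2.32 CPM in the controls. Neither passed (edgeR adjusted p = 0.916 and 0.952), and control replicate 1 was highest for both. Exons of Pmel overlap those of Cdk2 and Dgka on the opposite strand, and no source used here says whether counting used strand. Slc24a5, a melanosomal exchanger likewise singled out afterwards, was lowest in control replicate 1, at 2.60, 3.92 and 3.68 CPM in CKO replicates 1 to 3 and 2.40, 4.49 and 4.57 CPM in control replicates 1 to 3. Its exons overlap Myef2 on the opposite strand, as those of Pmel do with their neighbours.

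Genes that build and move melanosomes, most of which serve lysosome-related organelles in many cells, showed 0 calls among 29 tested (median log2 fold change -0.10). At an unadjusted p under 0.05 there were 2, and DESeq2's Wald test called 1, Vps41, a subunit of a complex that tethers vesicles to lysosomes, lower in the CKO (log2 fold change -0.41, DESeq2 adjusted p = 0.0359). Myo5a, the myosin that holds melanosomes at the cell edge, stood at 218 ± 16.2 CPM in CKO libraries and 251 ± 26.7 CPM in controls, and Ap3d1, a subunit of the AP-3 sorting adaptor, at 198 ± 12.5 and 237 ± 75.7 CPM in CKO and control. Rab38, singled out after its values were seen, is a small GTPase that carries Tyr and Tyrp1 to the melanosome. It had 2.84, 2.80 and 3.56 CPM in CKO replicates 1 to 3, against 10.8, 2.92 and 3.12 CPM in control replicates 1 to 3, so that control replicate 1 stood apart as it did for Tyr (edgeR adjusted p = 0.906).

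Genes of the retinoid cycle gave 0 calls among 10 tested (median -0.25, 1 at an unadjusted p under 0.05, 0 by DESeq2's Wald test). Of the 10, 2 were highest in control replicate 1 (20%, against 26.6% of all tested genes). Crabp1, which binds retinoic acid, was at 63.3 ± 8.59 CPM in CKO libraries and 81.7 ± 29.8 CPM in controls. Lrat, the acyltransferase that feeds Rpe65, did not pass the filter. Among 23 tested genes that mark or serve the pigment epithelium 0 were called (median -0.04, 3 at an unadjusted p under 0.05, 0 by DESeq2's Wald test). Control replicate 1 was the highest library for 7 of the 23 (30.4%). The most abundant of the 23 were the growth factor gene Vegfa at 130 ± 44.8 and 142 ± 64.6 CPM, the protease inhibitor gene Cst3 at 102 ± 7.17 and 105 ± 29.9 CPM, the lactate transporter gene Slc16a3 at 57.3 ± 16.3 and 93.9 ± 31.1 CPM and the integrin gene Itgb5 at 54.3 ± 9.19 and 66.99 ± 23.1 CPM, each in CKO and control libraries. These are expressed in many tissues. The 3 at an unadjusted p under 0.05 went in both directions. Serpinf1 and Slc16a3 were lower in the CKO (log2 fold change -0.82 and -0.71, edgeR unadjusted p = 0.0131 and 0.0356). Car14 was higher (0.70, edgeR unadjusted p = 0.0290).

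Among 28 tested regulators of pigment epithelium fate 0 were called (median -0.00346, 1 at an unadjusted p under 0.05, 0 by DESeq2's Wald test). The most abundant, Dkk3 (1446 ± 88.0 and 1457 ± 148 CPM in CKO and control), Ctnnb1 (1419 ± 57.4 and 1382 ± 341 CPM), Fgf15 (1352 ± 15.5 and 1266 ± 267 CPM) and Sox11 (1035 ± 32.2 and 1362 ± 390 CPM), are genes of the neural retina as well. Otx2, singled out after its values were seen, is a partner of MITF in pigment epithelium that photoreceptor precursors also express. It was at 157 ± 6.77 CPM in CKO libraries and 128 ± 22.8 CPM in controls (log2 fold change 0.30 ± 0.16, edgeR adjusted p = 0.882). Of the 28 regulators, 10 were highest in control replicate 1 (35.7%, against 26.6% of all tested genes).

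Markers of other cells that could bring pigment transcripts or tissue into the dissection were compared with the library pattern, and their part in it was not tested. Of 15 melanocyte and neural crest markers 11 were tested and 0 called (median -0.07, 0 at an unadjusted p under 0.05, 0 by DESeq2's Wald test), and the sum of all 15 was 240 to 276 CPM in CKO libraries and 234 to 308 CPM in controls, lowest in control replicate 1. Some of the 15, singled out after their values were seen, were at or near 0: Sox10 had 0 to 2 reads in CKO libraries and 1 to 2 in controls, Pax3 had 1 read in all, and Foxd3 had 0 reads in every library. The most abundant, Tfap2b (94.2 ± 12.1 and 96.1 ± 32.5 CPM in CKO and control) and Kit (52.6 ± 1.65 and 55.2 ± 3.05 CPM), are also expressed by retinal cells. Abundant genes weigh most in the sum, and Tfap2b had 66.4, 91.0 and 131 CPM in control replicates 1 to 3. Gene by gene, 4 of the 11 tested were highest in control replicate 1 (36.4%, against 26.6% of all tested genes), namely Erbb3, Snai2, Mcoln3 and Fabp7. Periocular mesenchyme markers summed to 89.3 to 110 CPM in CKO libraries and 106 to 243 CPM in controls, with the top value in control replicate 2 and 0 of 10 tested genes called (median 0.07, 1 at an unadjusted p under 0.05, 0 by DESeq2's Wald test). Col6a1 was at 30.5 ± 5.38 and 60.2 ± 44.6 CPM and Col1a2 at 20.5 ± 4.48 and 43.3 ± 18.9 CPM in CKO and control.

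Choroid and blood vessel markers summed to 258 to 284 CPM in CKO libraries and 302 to 361 CPM in controls, lowest of the controls in replicate 1. Of 13 tested 0 were called by edgeR (median -0.56, 3 at an unadjusted p under 0.05) and 1, the VEGF receptor gene Flt1, by DESeq2's Wald test (log2 fold change -1.04, DESeq2 adjusted p = 0.00684). Every CKO library was below every control for 5 of the 13, against 6.91% of all tested genes, and above for 0, against 5.74%. Kdr was at 237 ± 5.78 and 283 ± 31.6 CPM and Cldn5 at 7.86 ± 0.42 and 12.2 ± 4.92 CPM in CKO and control. The list sums averaged 275 and 339 CPM, so Kdr made up most of them and the sums chiefly follow that gene. Lens markers, at 10930, 66.2 and 799 CPM in CKO replicates 1 to 3 and 21.3, 12.8 and 13.9 CPM in control replicates 1 to 3, were highest in CKO replicate 1. Of 16 tested, edgeR called 0 over all genes, 16 had an unadjusted p under 0.05, and DESeq2's Wald test called 15. The lens crystallin gene Cryaa had 3239, 34.6 and 175 CPM in CKO replicates 1 to 3 and 3.97, 1.05 and 2.86 CPM in control replicates 1 to 3, and Cryba1 had 1887, 6.65 and 123 CPM in the CKO and 3.22, 0.393 and 1.60 CPM in the controls. The pigment genes, at 31.4 CPM in CKO replicate 1, did not share that spread.

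The genes outside the 8 whose profile over the 6 libraries was most like theirs were Lrrc66, 2810408I11Rik, Hpgd, Cdh8, Lpar3 and 1810011O10Rik. Likeness was the root mean square difference between a gene's centred log2 CPM and the mean of the 5 tested pigment genes. It was 0.0838 for Lrrc66, 0.143 for 2810408I11Rik, 0.156 for Hpgd, 0.163 for Cdh8, 0.164 for Lpar3 and 0.168 for 1810011O10Rik. The median over the other 14604 tested genes was 0.510. The 5 pigment genes lay at 0.259 to 0.309, as a description only, since each is part of the mean it was set against. Hpgd, which inactivates prostaglandins, had 3.32, 3.58 and 3.11 CPM in CKO replicates 1 to 3, against 6.52, 3.36 and 4.34 CPM in control replicates 1 to 3, and Cdh8, a cell adhesion gene, 7.86, 6.50 and 6.63 CPM in the CKO, against 14.2, 7.33 and 9.10 CPM in the controls. All 6 were highest in control replicate 1, and their adjusted p values for genotype were 0.837 to 0.940 (edgeR). Both follow from picking the 6 by that profile and are description only. Some listed genes were picked afterwards and looked up in this likeness among the 14604. All of those picked except Slc24a5 were highest in control replicate 1, as the profile is, so near ranks follow from that choice. The other listed genes were not looked up, so the ranks do not describe the lists. Pmel ranked 304, Serpinf1 372, Oca2 487, Otx1 778, Wfdc1 862, Rab38 1065, Bmp4 1530 and Slc24a5 12868.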

How the data were processed

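Retinal RNA of 3 CKO and 3 control libraries was grouped by their labels. RNA was selected by its poly-A tail, per the labels' protocols. The authors deposited raw read counts per gene symbol, and the submitters' processing notes name BWA 0.7.6a-r433, HTSeq 0.5.4p3, DESeq 2.13 and mm9 without roles or settings. From the deposited counts, 1 repeated gene with identical counts, 3 merge-conflict lines and 1 blank line were skipped, and 0 rows named no gene. In edgeR 4.0.16 (R 4.3.3), filterByExpr (minimum count 10) kept 14609 genes, libraries were scaled by TMM, and genotype was tested by the quasi-likelihood F test with Benjamini-Hochberg adjustment over all genes (threshold 0.05). Log2 CPM used a prior count of 2, and SE is the absolute log2 fold change over the square root of F. On simulated counts the fit recovered 100 of 100 genes changed 4-fold and 34 of 100 changed 2-fold. Most changes of 2-fold were thus missed there, which limits what 0 calls can show. The changed genes were drawn from all genes with a mean above 1 CPM. The median SD of log2 CPM in controls was 0.327 over all tested genes and 0.850 over the tested pigment genes. Recovery of 4-fold changes in genes as variable as these was therefore not measured. No libraries of a group agreed within sampling noise (lowest chi-square per degree of freedom 5.77).

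Coding lengths and exon overlaps came from GENCODE M21, promoters from RefSeq, both on GRCm38, so no coordinates of the counts are given. The 8 genes and all lists were chosen with earlier results of these data known. Named genes were the 8, the called genes of each list or else the 2 most abundant tested (up to 4 for melanosome proteins, pigment epithelium markers and regulators), Thap11, and the 6 genes of most similar profile. Some genes counted in the lists are not reported here by name. Alternatives were DESeq2 size factors, library sizes alone, DESeq2 1.42.0, limma-voom (limma 3.58.1), no filter, at least 1 CPM in 3 libraries, an adjusted p threshold of 0.01, each library left out, and a fit with the replicate number as block. Added after the values were seen were the sum without Trpm1 and the settings for Ctns.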

Additional observations from a re-analysis of the deposited data

How the results depend on the processing

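Of the pigment genes tested, 4 to 8 depending on the setting, 0 were called under any of the alternatives run. The sign held for Tyr, Dct and Trpm1 under every alternative. It reversed without control replicate 1 for Mitf, to 0.25 (range with 1 library left out -0.63 to 0.25), and for Tyrp1, to 0.33 (-0.65 to 0.33), where the high value of that library in both genes is itself left out. With 1 library left out, Tyr spanned -1.15 to -0.16, Dct -0.73 to -0.47 and Trpm1 -0.82 to -0.27 in log2 fold change, and the summed level differed by -20.8 to -4.66 CPM. Tyr was not tested at a minimum of 1 CPM in 3 libraries, which it did not reach.

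Over all genes, 131 calls became 326 with DESeq2's Wald test, 39 at a threshold of 0.01, and 16 to 219 with 1 library left out (41, 53 and 16 on leaving out CKO replicates 1, 2 and 3, and 219 and 33 on leaving out control replicates 2 and 3). In the melanosome list the 1 call became 0 with library sizes alone and at 0.01, and 0 to 1 with 1 library left out. DESeq2's Wald test called 1 melanosome transport gene, 1 vessel gene and 15 lens genes, and 0 to 13 lens genes were called with 1 library left out (13 without CKO replicate 2). The causes were not tested. With the replicate number as a block, 153 genes and 10 lens genes were called and 0 of the 5 tested pigment genes. Same-numbered libraries deviated together at correlations of 0.336, 0.107 and -0.00775, and CKO replicate 2 correlated best with control replicate 3 (0.201), so the numbers were not taken as pairs. Counts of 0 to 22 reads limit Tyr in the CKO, Mlana, Slc45a2 and Rpe65.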
